A study of Mus musculus with 2 samples.

Results

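The small leucine-rich proteoglycans are secreted matrix proteins built around a curved stretch of leucine-rich repeats, many of which carry chondroitin, dermatan or keratan sulfate chains. They bind collagen fibrils and set the thickness and spacing of the fibrils, and several of them also bind growth factors such as TGF-beta. In white fat they belong to the matrix made by fibroblast-like stromal cells, among which adipocyte precursors are found. The 10 genes described here are decorin (Dcn), biglycan (Bgn) and asporin (Aspn) of class I, fibromodulin (Fmod), lumican (Lum), keratocan (Kera), Prelp and osteomodulin (Omd) of class II, osteoglycin (Ogn) of class III and podocan (Podn) of class V. They were listed by name, with earlier results of these data known, and each was represented by its probe set with the highest mean. All 10 had a value, out of 19938 genes measured, and each had 1 probe set naming it alone.

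Expression was measured on 2 microarrays in cells positive for PDGFRα, a receptor that marks fibroblast-like cells, sorted from the non-adipocyte (stromal vascular) fraction of inguinal white fat. One array held RNA from female mice with floxed Sox9, the other from female Sox9 PreASKO mice. Both groups were 6 weeks old and had been given doxycycline at postnatal day 1. Each array held a pool described as 3 mice, so that there is no spread within a group, no error and no test for any value below. Sox9 encodes a transcription factor of cartilage and progenitor cells. The labels name neither the recombinase behind PreASKO nor the promoter that drives it, and they do not say whether the floxed mice carried the other transgenes.

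Values are on the log2 scale of the deposited table, and a difference is PreASKO minus floxed. The series names 1.5-fold as its limit, which is 0.585 on this scale. Signals of different probe sets depend on their probes, so that only the differences between the arrays, not the levels, are compared between genes. A value of 4.64 was taken as a background mark, the 95th percentile of 1027 olfactory receptor genes in the floxed array, where it was higher than in the PreASKO array (4.47). Sox9 itself was at 5.25 in floxed and 4.97 in PreASKO, a difference of -0.27 (0.03 relative to Pdgfra). Of all genes 13.2% were as negative or more, and where the Sox9 probe set lies relative to the floxed part was not examined. The sorted receptor's gene, Pdgfra, stood at 9.86 and 9.55 (-0.31), and 12 fibroblast markers including it had a median difference of -0.05. In sorted bulk cells, fewer cells of one kind and less RNA per cell cannot be told apart.

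Fibromodulin and keratocan were lower in PreASKO by more than 1.5-fold, while decorin, lumican and biglycan were nearly level. Whether Sox9 acts on fibromodulin or keratocan was not tested. The promoters of both genes are shown because these are the members with the large differences. They are the 250 bases before the RefSeq transcript start in GRCm38.p6, both on the plus strand, Fmod at chr1:134037004-134037253 and Kera at chr10:97606955-97607204. Most of the Kera window lies inside the RefSeq span of the gene, which begins further upstream. Capitals mark the letters AACAAT, a core that SOX factors bind, or its reverse complement, and the E-box CANNTG, which reads the same on both strands.
Fmod: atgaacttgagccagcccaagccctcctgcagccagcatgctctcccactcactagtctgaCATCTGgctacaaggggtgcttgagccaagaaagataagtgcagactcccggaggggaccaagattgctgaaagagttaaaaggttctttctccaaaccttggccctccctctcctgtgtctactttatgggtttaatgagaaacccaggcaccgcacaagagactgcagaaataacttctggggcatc
Kera: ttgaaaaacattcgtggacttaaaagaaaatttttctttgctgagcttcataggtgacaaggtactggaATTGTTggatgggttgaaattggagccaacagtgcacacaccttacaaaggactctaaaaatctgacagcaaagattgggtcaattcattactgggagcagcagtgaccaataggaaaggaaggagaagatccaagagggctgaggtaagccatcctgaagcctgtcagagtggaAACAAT

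The Kera window held AACAAT at 2 places, whose first bases lie 181 and 6 bases before the start, the farther one on the minus strand. The Fmod window held none of these and 1 E-box, 189 bases before the start. Of all 32851 promoter windows of this length, 9.42% held AACAAT and 66.2% held an E-box on either strand. Promoters were at hand for 8 of the 10 members. Those of Dcn and Lum were not, so that their letters are unknown here. Aspn and Prelp also held AACAAT at 1 place each. Prelp was higher by 0.28 and Aspn lower by 0.24. Of the family genes outside the 10, Epyc (-0.15) and Nyx (-0.34) held the letters too. Of the 5 family genes with them 4 were lower. With or without the letters, 7 of the 10 members and 6 of the 6 other measured family genes were lower, beside at least 47.7% of all genes. Of those 6, 3 lay below the background mark in both arrays, where the sign carries little meaning. Relative to Pdgfra, only Kera (-0.69) and Nyx (-0.03) of those with the letters stayed lower. These matches describe letters and are not sites of binding.

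Fibromodulin, which binds fibrillar collagen at a site it shares with lumican and influences cross-linking by lysyl oxidase, was at 5.96 in floxed and 5.15 in PreASKO. The PreASKO signal was 57.1% of the floxed one, which is 1.75-fold lower, a difference of -0.81. Both values lay above the background mark, by 1.32 in floxed and by only 0.51 in PreASKO. RMA can compress differences of dim probe sets, which was not measured here, and the PreASKO value is near that range.

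Keratocan, best known as a keratan sulfate proteoglycan of the corneal stroma, was at 7.39 in floxed and 6.39 in PreASKO. Its signal in PreASKO was 50.0% of that in floxed, 2.001-fold lower, a difference of -1.001. It lay 2.75 and 1.75 above the background mark, clear of it in both arrays. The probe set therefore gave a signal above the mark in the sorted cells of both groups. Whether other transcripts or other cells in the sort added to it was not examined.

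Of all genes measured, 1.98% were at least 1.5-fold lower in PreASKO and 0.145% were at least 2-fold lower. Of the 10 proteoglycan genes, 2 passed the first limit and 1 of them, keratocan, also passed the second. Keratocan ranked 29 and fibromodulin 106 from the most negative of the 19938 differences. Among the 11015 genes above the mark in both arrays, of which 0.826% were 1.5-fold and 0.0908% were 2-fold lower, they ranked 10 and 23. Genes at a like mean level give a closer frame, since the spread of differences widens among dim genes. Within 0.5 of the mean level of fibromodulin there were 3255 genes, the middle 95% of whose differences ran from -0.53 to 0.56, and 1.69% were 1.5-fold lower. The same band around keratocan held 2762 genes with a middle 95% from -0.41 to 0.48, and 0.797% were 1.5-fold lower. Both genes lay below their bands. The genes were chosen with earlier results of these data known, so that the ranks and bands describe these differences and are no test of them.

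**Figure D1:**
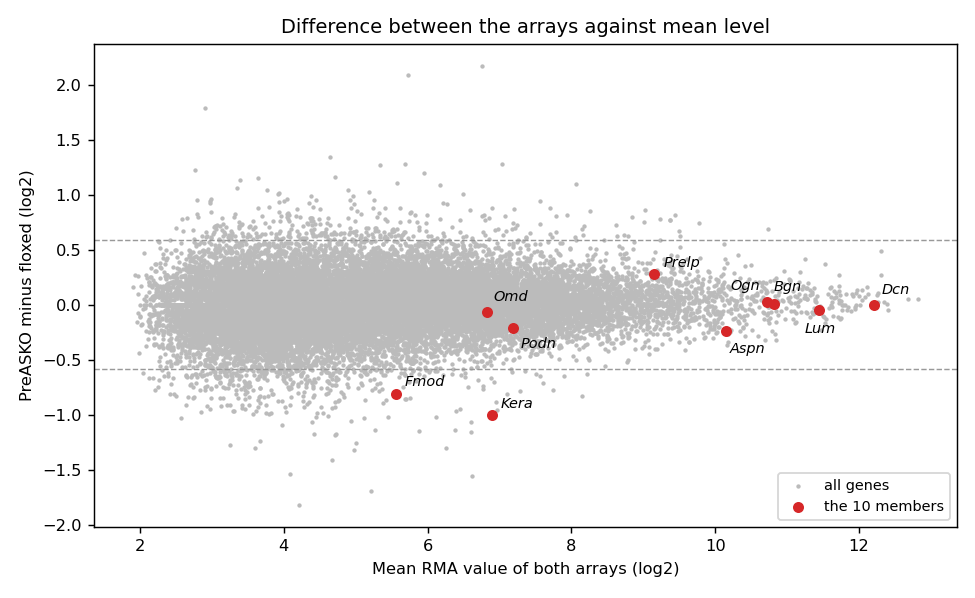
Each grey point is 1 of 19938 genes, with its mean value over both arrays on the x axis and its difference, PreASKO minus floxed, on the y axis, both on the log2 scale; red points are the 10 proteoglycan genes and dashed lines mark 1.5-fold. Fmod (-0.81) and Kera (-1.001) lie under the lower line and at the edge of the cloud, and the other 8 lie between the lines from -0.24 to 0.28.

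Decorin, the class I proteoglycan that binds collagen and TGF-beta, was at 12.21 in both arrays, a difference of -0.0035. Both arrays reached 13.79 or above, so that decorin was below the highest values. Whether differences are compressed at so bright a level was not measured. Lumican, a keratan sulfate proteoglycan that limits fibril thickness in cornea, skin and tendon, was at 11.47 and 11.42, a difference of -0.05. Only 41 genes lay within 0.5 of the mean level of decorin and 101 within 0.5 of that of lumican, and 0 of them was 1.5-fold lower in either band. The middle 95% of differences ran from -0.12 to 0.27 in the first band and from -0.16 to 0.30 in the second.

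Set against decorin, fibromodulin was 1.75-fold lower and keratocan 1.996-fold lower in PreASKO. Against lumican the sizes were 1.70-fold and 1.94-fold. The difference of fibromodulin minus the median of decorin and lumican was -0.78, and for keratocan it was -0.98. Because any factor common to a whole array drops out of such a within-family difference, it was the same when all genes were set relative to Pdgfra. Fibromodulin and keratocan differed from each other by 0.19 in size, for which no error is at hand.

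The other class I members were both bright. Biglycan, whose soluble form is a ligand of TLR2 and TLR4, was at 10.81 and 10.82, a difference of 0.01. Asporin, an aspartate-rich member that binds TGF-beta and collagen, was at 10.27 and 10.02, a difference of -0.24. All 3 class I genes therefore lay between -0.24 and 0.01, inside the 1.5-fold limit.

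Class II held both genes past the limit and also the one with the most positive difference. Prelp, whose basic end binds heparin and heparan sulfate and which links basement membranes to collagen, was at 9.02 and 9.29, a difference of 0.28. Osteomodulin, a keratan sulfate proteoglycan first known from bone, was at 6.85 and 6.79, a difference of -0.06. The 5 class II genes spanned 1.28 on the log2 scale, against 0.25 for the 3 of class I. Prelp and fibromodulin were 2.12-fold apart in how they differed between the arrays.

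Osteoglycin (mimecan), the class III member, was at 10.71 and 10.73, a difference of 0.02. Podocan, a class V member that restrains smooth muscle growth, was at 7.30 and 7.08, a difference of -0.22. Over all 10 genes the median difference was -0.05, beside 0 over all 19938 genes, and it moved to 0.26 when differences were taken relative to Pdgfra. Apart from fibromodulin and keratocan, 5 genes differed by less than 0.1 and the rest by at most 0.28. None was 1.5-fold higher, against 1.66% of all genes.

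**Figure D2:**
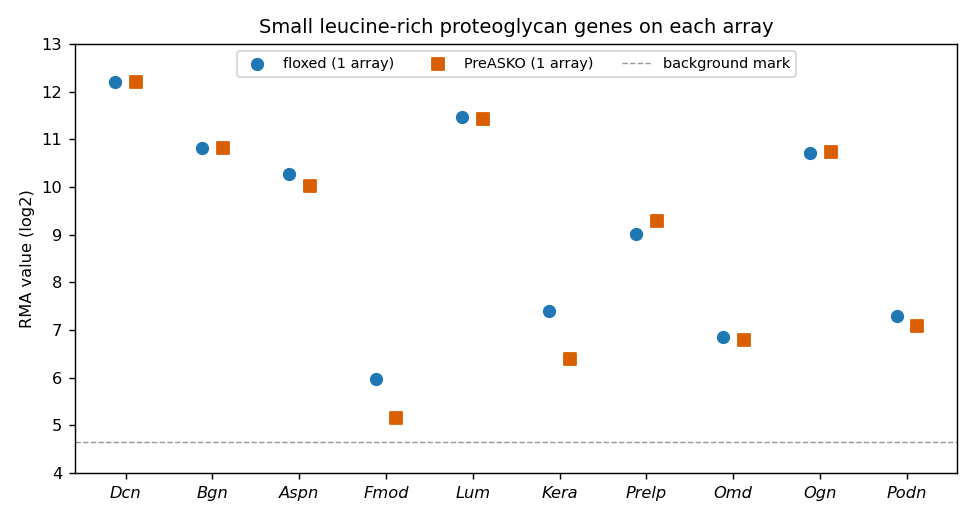
The value of each proteoglycan gene (log2, y axis) on the floxed array (circles) and the PreASKO array (squares), 1 array a group and so with no error bars, ordered by class; the dashed line is the background mark of 4.64. All 10 genes lie above the mark on both arrays, and the pairs stand clearly apart only for Fmod (5.96 and 5.15) and Kera (7.39 and 6.39); levels of different genes are not comparable.

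Most of these genes lie in clusters of neighbours, and the large differences of keratocan and fibromodulin were not seen in their direct neighbours. On chromosome 10 the order of protein-coding genes in RefSeq GRCm38.p6 is Dcn, Lum, Kera and Epyc, with no other such gene between them. Keratocan differed by -1.001 there, while its direct neighbours lumican and epiphycan differed by -0.05 and -0.15. Beyond that cluster Btg1 differed by 0.17 and Atp2b1 by -0.03, and Ccer1 was below the background mark in both arrays. On chromosome 1 the order is Optc, Prelp and Fmod. Prelp (0.28) and fibromodulin (-0.81) are direct neighbours with differences of opposite sign, and Btg2 on the far side of fibromodulin differed by 0.15. On chromosome 13 Ecm2, Aspn, Omd and Ogn follow each other with differences of -0.30, -0.24, -0.06 and 0.02. None of these 4 passed the limit.

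**Figure D3:**
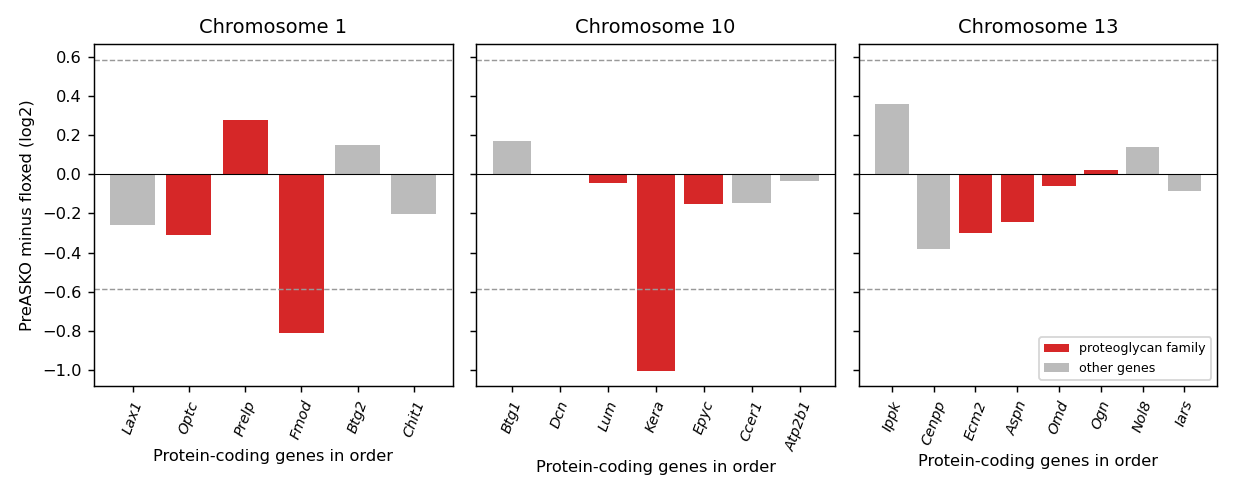
Bars give the difference PreASKO minus floxed (log2, y axis) for protein-coding genes in their order along chromosomes 1, 10 and 13, with the proteoglycan family in red, neighbours in grey and dashed lines at 1.5-fold; spacing is not to scale and neighbours without a value are left out. Kera (-1.001) stands beside Lum (-0.05) and Epyc (-0.15), and Fmod (-0.81) beside Prelp (0.28); the bar of Dcn is too short to see.

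The family has further members, of which 6 of the 7 listed had a value. All 6 were lower in PreASKO by less than 1.5-fold, or 1 of 6 (Nyx) relative to Pdgfra, and only 3 were above the background mark. Of all genes at least 47.7% were lower. Ecm2, extracellular matrix protein 2, was at 8.10 and 7.80, a difference of -0.30. Epyc, the cartilage proteoglycan epiphycan, was at 4.96 and 4.81, close to the mark. Opticin (Optc), chondroadherin (Chad) and Podnl1 were below the mark in both arrays, with no fold to give. Nyx, the nyctalopin gene of the retina, had 2 probe sets, at 8.59 and 8.25 on one and at 3.95 and 3.82 on the other. One of them is bright and the other below the mark, so that the level of Nyx is uncertain.

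For related genes the reference again matters: relative to Pdgfra each list median below is higher by 0.31, so that every negative one turns positive. On that scale at least 12.5% of all genes pass 1.5-fold upwards, the share with differences as positive as that of Prelp or more. Of 15 fibril-forming, fibril-associated and type VI collagen genes, a single one passed 1.5-fold, downwards, and the median difference was -0.15 (0.16 relative to Pdgfra). That gene was Col12a1, a fibril-associated collagen of tendon and other dense tissue, at 7.66 and 7.06, a difference of -0.60 that no longer passed the limit relative to Pdgfra (-0.29) or to the fibroblast markers. The type VI genes Col6a2 (-0.34) and Col6a1 (-0.30) and the fibril-associated Col14a1 (-0.31) were also lower, by less than the limit. The major fibrillar genes differed little, Col1a1 by -0.21, Col1a2 by -0.05 and Col3a1 by 0.04. On the positive side were Col5a3 (0.19) and Col5a1 (0.16), whose products help to start fibrils. Relative to Pdgfra only Col12a1, Col11a1 (-0.06) and Col6a2 (-0.03) of this list were lower.

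Enzymes that process and cross-link collagen had a median difference of -0.05 over 18 measured genes of 21. The protease gene Tll1 passed the limit by its deposited values (5.03 and 4.43), but its PreASKO value is below the mark, which leaves it at least 1.31-fold lower. Lox, the lysyl oxidase whose action fibromodulin influences, was at 8.93 and 8.64, a difference of -0.29. Loxl1, a related oxidase of elastic fibres, was at 10.03 and 10.11. P4ha3, a collagen prolyl hydroxylase subunit gene, had the most positive difference of the list, 0.38.

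Genes that build the sugar chains were divided by step. The 7 genes of the linker that joins a chain to its core protein had a median difference of 0.14, from the glucuronyltransferase gene B3gat3 (-0.22) to Pxylp1, a phosphatase of the linker xylose (0.33). Chondroitin and dermatan sulfate genes had a median of -0.10 over 16, with Csgalnact1, which starts chondroitin chains, at 5.35 and 4.89, a difference of -0.46. Keratan sulfate genes had a median of -0.09 over 8. Among them Chst1, a sulfotransferase for galactose in keratan sulfate, was at 6.85 and 6.39, a difference of -0.46, and Chst2 differed by -0.29. None of these 31 genes was 1.5-fold apart, against 3.64% of all genes in either direction. Relative to Pdgfra 2 passed it upwards, where at least 12.5% of all genes do. They were Pxylp1 (0.64) and the dim Chst4, which is below the mark in both arrays.

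Receptors and ligands linked to the family had a median difference of 0.00 over 16 measured genes of 17, and none passed the limit. Relative to Pdgfra only Tgfb1 (0.77) did, where at least 12.5% of all genes pass it upwards. TLR2 and TLR4, the receptors for soluble biglycan, differed by 0.10 and -0.09. Egfr, bound by decorin, was at 10.01 and 10.20, and Tgfb1, the growth factor gene, was at 6.37 and 6.82, a difference of 0.46. Of 9 proteases that cleave these proteins, 8 were lower, or 1 (Adamts1) relative to Pdgfra, and none by 1.5-fold, with a median of -0.11. At least 47.7% of all genes were lower. Adamts1 had the most negative difference, -0.41 (9.78 and 9.37). Other proteoglycans had a median of -0.06 over 25, and the glypican gene Gpc4 differed by -0.45, versican (Vcan) by 0.04 and perlecan (Hspg2) by 0.14. Gpc5 was past 1.5-fold by its deposited values but below the mark in both arrays.

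**Figure D4:**
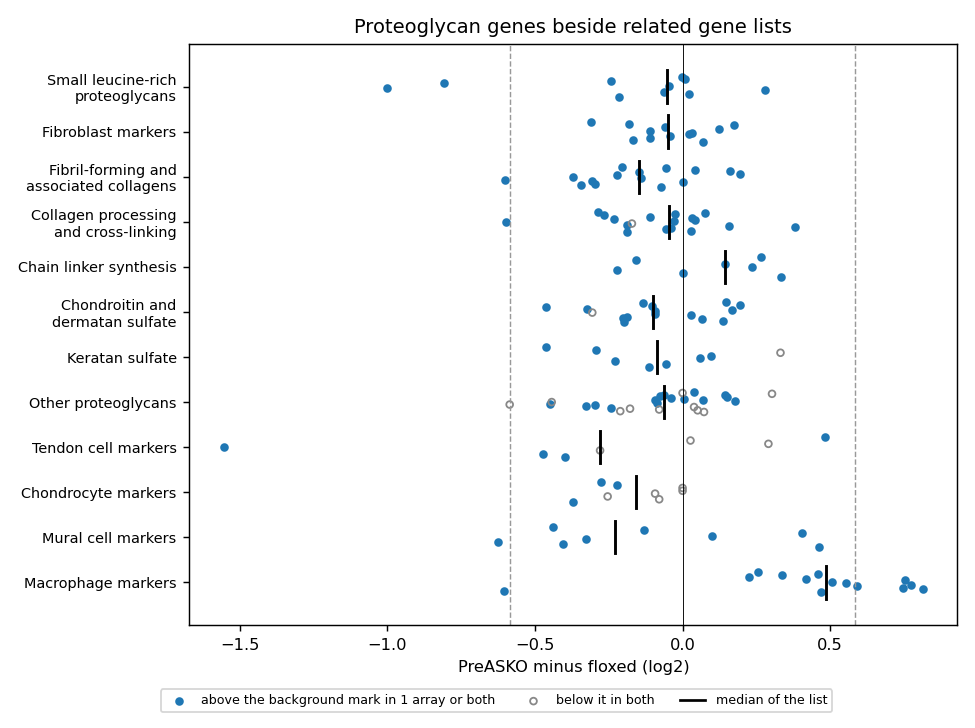
Each point is a gene's difference PreASKO minus floxed (log2, x axis), grouped in rows by gene list; filled points are above the background mark in 1 array or both, open points below it in both, black bars are list medians and dashed lines mark 1.5-fold. The proteoglycan median (-0.05) lies at that of the fibroblast markers (-0.05), with Kera and Fmod apart on the left, and the macrophage markers lie to the right (0.49); relative to Pdgfra the proteoglycan and fibroblast medians turn positive.

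Markers of other cells differed between the arrays as well. Beside the counts below, at least 47.7% of all genes were lower and at least 47.6% higher. Of 7 tendon cell markers 4 were lower, or 3 relative to Pdgfra, and 3 lay below the mark in both arrays. Their summed linear signals, which the brightest probe sets dominate, were 526 in floxed and 344 in PreASKO, or 358 and 286 without Thbs4. Thbs4, a matrix thrombospondin of tendon and muscle, was 2.93-fold lower (7.39 and 5.84), while tenascin C (Tnc) differed by -0.47 and Cilp by -0.40. The defining tendon genes Tnmd and Mkx were below the background mark in both arrays, and Scx was above it only in PreASKO (4.32 and 4.80). Of 8 mural cell markers 5 were lower, or 4 relative to Pdgfra, with summed signals of 532 and 452. The potassium channel gene Kcnj8 was past the limit (-0.62), but inside it relative to Pdgfra (-0.31) and to the fibroblast markers (-0.57). Another 3 were higher, among them Notch3 (0.46) and Myh11 (0.40), the latter above the mark only in PreASKO. Relative to Pdgfra these 2 passed 1.5-fold upwards, where at least 12.5% of all genes do, and 0 mural markers passed it downwards. Chondrocyte markers summed to 174 and 150, 6 of 8 were lower, or 1 relative to Pdgfra, 5 lay below the mark in both arrays, and Acan and Matn1 were among these.

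Macrophage markers were higher in PreASKO in 13 of 14 genes, with summed signals of 8427 and 11995. H2-Ab1, Tyrobp, C1qa, Cd74 and Fcer1g, 5 of the 14, were 1.5-fold higher, against 1.66% of all genes. Relative to Pdgfra 11 were, against at least 12.5% of all genes. The exception among the 14, the fractalkine receptor gene Cx3cr1, was 1.52-fold lower (6.40 and 5.80), or -0.29 relative to Pdgfra and -0.55 relative to the fibroblast markers. Fibroblast markers summed to 24763 and 24720. Of the 7 endothelial markers 5 were lower, or 2 relative to Pdgfra, with sums of 477 and 423. Among them 2 lay below the mark in both arrays, and of the 4 above it in both, 2 were lower and 2 higher. Kdr was past the limit at -0.69 (-0.38 and inside it relative to Pdgfra). Muscle markers summed to 175 and 217 over 4 genes, with Tnnt3 higher by 0.76. Summed signals were 35.4 and 42.7 for 3 osteoblast, 3990 and 3921 for 5 adipocyte, 68.8 and 70.4 for 4 mesothelial, 140 and 154 for 6 epithelial and 248 and 236 for 2 Schwann cell markers. All of the osteoblast and mesothelial and 5 of the epithelial markers were below the background mark in both arrays, so that their sums are mostly background. Of the adipocyte markers 2, Adipoq and Cidec, were below it in both arrays, and the bright Lpl and Fabp4 make up most of that sum. Of the Schwann cell markers, the brighter S100b differed by -0.01 and Sox10 by -0.48. The part of the differences in tendon, mural, macrophage and endothelial markers in the lower signals of fibromodulin and keratocan was not tested.

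The choice of reference mattered for how far fibromodulin was from the limit. Relative to the fibroblast marker median its difference was -0.76 and that of keratocan -0.95. Relative to Pdgfra alone the differences were -0.50 and -0.69, so that only keratocan stayed past 1.5-fold. Prelp reached 0.59, just past it in the other direction, but 12.5% of all genes were as positive as Prelp or more. Pdgfra had the most negative difference of the 12 fibroblast markers.

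**Figure D5:**
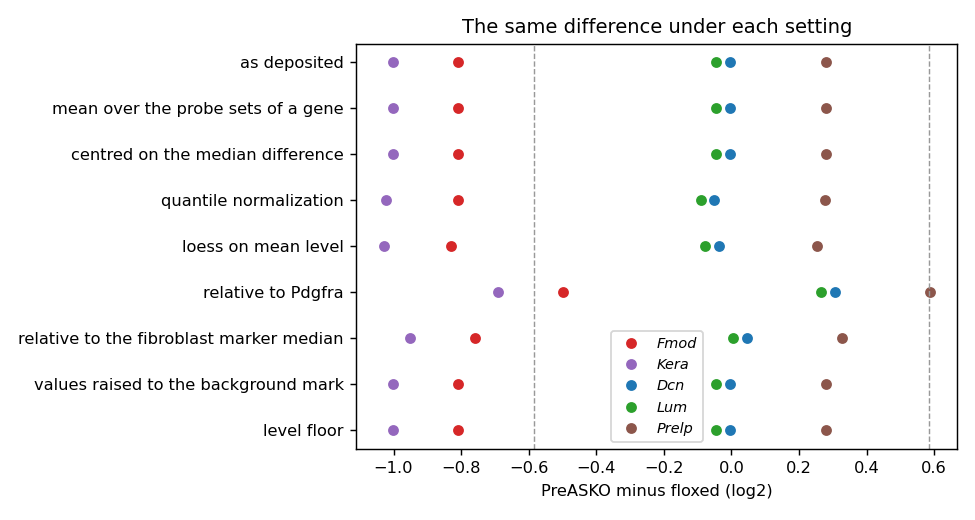
Differences PreASKO minus floxed (log2, x axis) of 5 proteoglycan genes under each setting (rows), with dashed lines at 1.5-fold. Rows that cannot move a member repeat the first. Kera stays left of the limit in every row and Fmod in every row but the one relative to Pdgfra (-0.50), where Dcn (0.31) and Lum (0.26) change sign and Prelp reaches 0.59; relative to the fibroblast marker median Dcn and Lum lie just above 0.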

How the data were processed

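RNA was measured on 1 array for each of the floxed and PreASKO groups. Per the submitters' processing notes the authors used RMA, which corrects background, aligns the arrays and summarises probes, with no version given in the sources used here. The deposited values are taken as log2 because they run from 1.23 to 13.8. Of 35556 probe sets, 21789 name 1 gene in the platform annotation, which can be old; 1621 name several, 12146 are unnamed here, and neither kind was used. Of several probe sets per gene, the one with the highest mean was taken. Members, gene lists and limits were chosen with earlier results of these data known. Named are all members, further family genes, list genes past 1.5-fold and up to 3 of the largest differences per direction above background; Col3a1, Col1a2, Col1a1, Loxl1, Tlr2, Tlr4, Vcan, Hspg2, Egfr and the neighbours were added for their roles or position. Promoters come from RefSeq (GRCm38.p6); the 10 gene identifiers matched RefSeq. Alternatives were scaling (centring, quantile, loess with span 0.3, relative to Pdgfra or fibroblast markers), dim values, probe set choice and a 2-fold limit. Steps were checked on simulated data. Python 3.11.15, pandas 2.3.3, numpy 2.4.6, statsmodels 0.14.6 and matplotlib 3.10.9 were used. The number of arrays limits precision.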

Additional observations from a re-analysis of the deposited data

How the results depend on the processing

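Leaving out a replicate was not possible, and no value has an error. No paired analysis was possible because there is only 1 array per genotype. Relative to Pdgfra, which moves the median of all genes by 0.31, the differences became -0.50 for fibromodulin, -0.69 for keratocan, 0.31 for decorin and 0.26 for lumican. The member median became 0.26, and 1 member was 1.5-fold lower and 1 (Prelp) higher, where at least 12.5% of all genes were 1.5-fold higher. In the deposited values 1 member was lower at the 2-fold limit. Of the 58 other values 32 could not move, since members have 1 probe set each and lie above the mark and the floor, and the median difference was already 0. The other 26, mainly under quantile normalization, loess and the fibroblast reference, moved by less than 0.1 on the log2 scale, or, for counts, by less than 1.5 times. They include fibromodulin minus the median of decorin and lumican, which also could not move relative to Pdgfra or the fibroblast markers, since a common shift drops out. The shifts relative to Pdgfra follow from subtracting its difference. Fibromodulin lies near background in PreASKO, where RMA can limit the size of a difference, which was not measured here. The middle 95% of differences was also wider around its mean level (-0.53 to 0.56) than around that of keratocan (-0.41 to 0.48). Genes past 1.5-fold over the whole table were 331 higher and 394 lower, 347 and 364 after loess, and 374 and 343 after quantile normalization.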

Other observations

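Above the background mark in both arrays, 10 genes were at least 2-fold lower in PreASKO, of which keratocan was the tenth. They were examined after their values were seen. Thbs4, a matrix thrombospondin, had the most negative difference (-1.55), and Mki67 (-1.30), Ccnb2 (-1.16), Top2a (-1.14), Anln (-1.02) and Ccna2 (-1.02) are genes of dividing cells. The remaining 3 were Mir680-1 (-1.15), Rab6b (-1.13) and Chmp1a (-1.06). Keratocan and Thbs4 were thus the matrix genes in this group. Keratocan passed 2-fold only barely (2.001-fold), and not relative to the fibroblast marker median (-0.95) or to Pdgfra (-0.69).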
